A study of Mus musculus with 2 samples.

Results

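A set of 8 genes of cholesterol synthesis were examined in mouse embryonic stem cells (ESCs) with and without the T258A change in Sox2: Hmgcs1, Sqle, Idi1, Fdps, Fdft1, Lss, Insig1 and Srebf2. They were taken by gene symbol from a table of 24532 genes, and all 8 were found. E14 cells, an established male mouse ESC line grown in serum with leukemia inhibitory factor, were the wild type. The E14-Sox2TA/WT cells were made from E14, and in them threonine 258 of Sox2 was replaced by alanine in 1 allele, by CRISPR/Cas9 cutting with a single-stranded donor, and the other allele stayed wild-type. Edited clones were picked and maintained in 2i medium, in which PD0325901 inhibits Mek and CHIR99021 inhibits Gsk3, on top of serum and leukemia inhibitory factor, and were used after the inhibitors had been removed; how many clones went into the library is not given in the sources used here. Each genotype had 1 library, so genotype, clonal selection and culture history cannot be told apart, and no difference has a replicate check. The comparison addresses how the transcriptome differs when 1 Sox2 allele loses the threonine that can carry O-GlcNAc, a single sugar that cells put on proteins.

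Cholesterol is built from acetyl-CoA through mevalonate, isopentenyl diphosphate, farnesyl diphosphate, squalene and lanosterol, and dividing cells need it for new membranes. Transcription of nearly all enzymes of the route is driven by SREBP2, the product of Srebf2, which is made as a membrane protein of the endoplasmic reticulum. When sterols are plentiful, Insig proteins hold SREBP2 and its escort Scap there; when sterols are scarce, SREBP2 travels to the Golgi, is cut by proteases and enters the nucleus. Insig1 is itself a target of SREBP2. Of the 8 genes, 6 encode enzymes of the route, and Insig1 and Srebf2 encode its control; no receptor for cholesterol uptake is among them, so they are called cholesterol synthesis genes here.

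Sequencing depth was 60263536 counted reads in E14 and 44609228 in E14-Sox2TA/WT cells. Levels are given as TPM (transcript abundance per unit of length, scaled to the library), and differences as the log2 ratio of TPM, E14-Sox2TA/WT over E14, for genes that reached a TPM of 10 in either library, the filter of the study. The 95% intervals come from the read counts and cover counting error only, not the variation between cultures. Sox2 had a TPM of 372.5 in E14 and 274.2 in E14-Sox2TA/WT cells, a log2 ratio of -0.44; the table cannot show the edit itself. Among 7 ESC markers, all past the filter, 3 had a higher and 4 a lower TPM in E14-Sox2TA/WT cells, with a median log2 ratio of -0.23. The split depended on scaling. With ratios centred on the median of all genes past the filter, 2 were higher and 5 lower (median -0.31). With reads scaled to the library total, 1 was higher and 6 lower (median -0.37). Pou5f1 stood at 1725 TPM in E14 and 1759 TPM in E14-Sox2TA/WT cells, whereas Nanog stood at 526.9 and 251.3 TPM (-1.07, past 2-fold), and the lowest of the 7 levels in either library was 104.1 TPM. The fibroblast markers Postn, Dcn and Lum had no read in either library, and the summed level of the 7 fibroblast markers was 43.1 TPM in E14 and 16.6 TPM in E14-Sox2TA/WT cells. Most of that sum was Thy1, at 40.1 and 11.4 TPM, while Col1a1, Col1a2 and Col3a1 were higher in E14-Sox2TA/WT cells at levels of at most 2.95 TPM. The 6 early differentiation markers (T, Eomes, Cdx2, Fgf5, Otx2 and Pou3f1) summed to 15.1 TPM in E14 and 98.8 TPM in E14-Sox2TA/WT cells, and the 4 of them past the filter were past 2-fold, from Otx2 at a log2 ratio of 2.33 through Pou3f1 and T to Cdx2 at 4.69. The 5 primitive endoderm markers summed to 37.3 and 14.9 TPM, and Gata4, the 1 of them past the filter, had a log2 ratio of -1.98. None of these 11 markers was at 0. Their part in the ratios given here was not tested, and in bulk RNA fewer cells of a type and less RNA per cell cannot be told apart.

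Promoters are shown first, because SREBP2 acts through DNA elements there. RefSeq windows (GRCm38.p6, 250 bases before to 50 after the start) were at hand for 5 of the genes, Hmgcs1, Idi1, Insig1, Lss and Srebf2. Printed are the 250 bases before the start, 5′ to 3′ on the strand of the gene, for Hmgcs1, Idi1 and Srebf2. Of the 5 windows, only that of Hmgcs1 had an exact match to TCACNCCAC, the letters searched for as the sterol regulatory element. Idi1 was the gene with the highest ratio, and Srebf2 had the lowest ratio among the 5. Capitals mark the sterol regulatory element (TCACNCCAC) and the CCAAT boxes, bound by SREBP2 and by its usual partner NF-Y; a CCAAT box on the opposite strand reads ATTGG here.
Hmgcs1, chr13:119690101-119690350, plus strand: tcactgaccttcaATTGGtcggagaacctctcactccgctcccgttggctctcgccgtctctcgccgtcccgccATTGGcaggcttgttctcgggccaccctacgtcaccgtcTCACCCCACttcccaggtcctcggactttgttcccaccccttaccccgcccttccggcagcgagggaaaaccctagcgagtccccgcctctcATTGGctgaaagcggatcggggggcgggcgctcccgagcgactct
Idi1, chr13:8885356-8885605, plus strand: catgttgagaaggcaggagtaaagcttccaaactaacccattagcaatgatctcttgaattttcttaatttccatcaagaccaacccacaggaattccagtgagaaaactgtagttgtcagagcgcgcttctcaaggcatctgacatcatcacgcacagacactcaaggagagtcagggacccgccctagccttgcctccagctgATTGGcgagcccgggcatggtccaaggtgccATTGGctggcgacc
Srebf2, chr15:82147019-82147268, plus strand: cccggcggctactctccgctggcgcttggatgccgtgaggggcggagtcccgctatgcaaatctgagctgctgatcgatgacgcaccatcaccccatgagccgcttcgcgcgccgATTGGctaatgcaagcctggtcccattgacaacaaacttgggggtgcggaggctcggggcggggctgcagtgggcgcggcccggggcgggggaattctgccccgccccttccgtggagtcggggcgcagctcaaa

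The match to TCACNCCAC in Hmgcs1 began at position -137 from the start, on the strand of the gene; the variant core CACCCCAC lies inside it. CCAAT was found in all 5 windows, with 4 matches in Hmgcs1, 2 in Idi1 and 1 each in Insig1, Lss and Srebf2, all on the opposite strand. The GC box GGGCGG, bound by Sp1, was also in all 5, with 5 matches in Srebf2, 3 each in Hmgcs1 and Insig1, 2 in Lss and 1 in Idi1. The E-box CACGTG was in Insig1 only of the 5. Over 32851 mouse windows of the same length searched on both strands, TCACNCCAC occurred in 1.24%, CACCCCAC in 2.87%, CCAAT in 37.4%, GGGCGG in 35.7% and CACGTG in 7.15%. A window without a match says only that these letters are not in it.

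**Figure D1:**
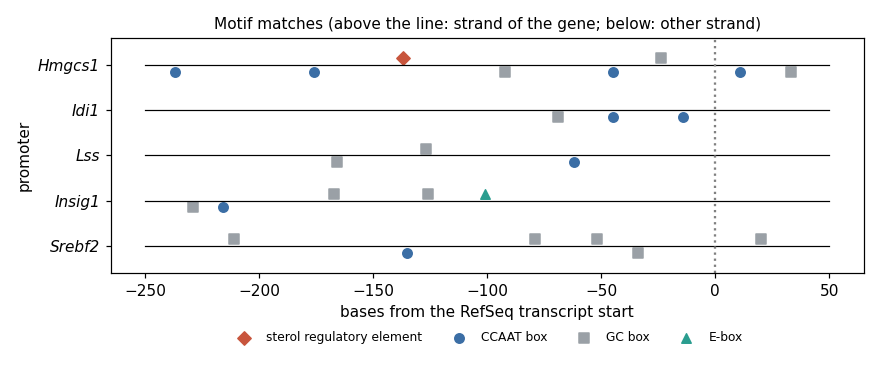
Motif matches in the promoter windows of the 5 genes with a RefSeq window, plotted by distance in bases from the transcript start; points above a line are on the strand of the gene and points below on the other strand. An exact match to the sterol regulatory element letters TCACNCCAC appears once, at -137 in Hmgcs1, and each of the 5 windows carries at least 1 CCAAT box and 1 GC box.

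All 8 genes had a higher TPM in E14-Sox2TA/WT cells, by 1.04-fold to 1.59-fold, and none differed more than 2-fold. Among 9094 genes past the filter, 57.3% had a higher TPM, 4.17% were more than 2-fold higher and 4.07% more than 2-fold lower. The median log2 ratio of the 8 genes was 0.25, against 0.08 for all genes past the filter. The counting interval lay above no change for 8 of 8 genes, as it did for 50.2% of the genes past the filter. By TPM, Idi1 and Sqle were more than 1.5-fold higher, 2 of 8 genes beside 14.2% of all genes past the filter. These calls did not hold under every scaling described below. Together the 8 genes summed to 1111 TPM in E14 and 1406 TPM in E14-Sox2TA/WT cells, and took 0.180% and 0.205% of the reads.

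**Figure D2:**
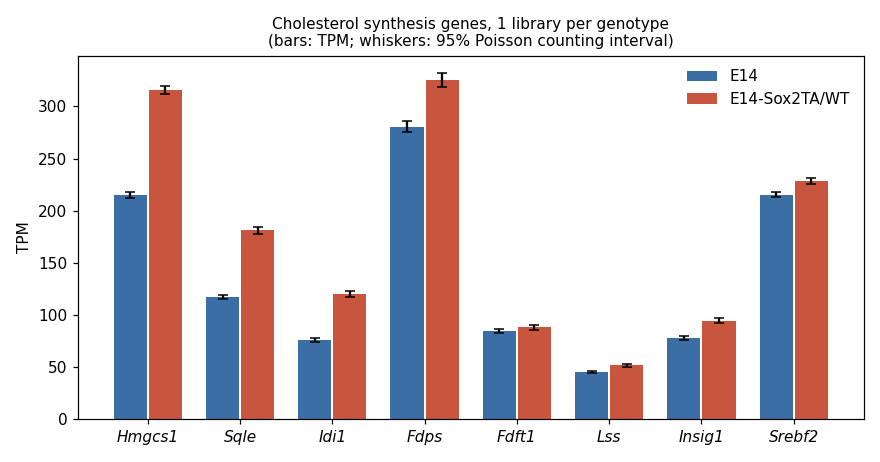
TPM of the 8 genes in E14 (blue) and E14-Sox2TA/WT (red) cells, 1 library each; bars are levels and whiskers the 95% Poisson counting interval. Every red bar is taller than its blue neighbour, from 88.1 against 84.5 TPM for Fdft1 to 120.5 against 75.8 TPM for Idi1.

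Hmgcs1 encodes the cytosolic synthase that makes HMG-CoA, an early intermediate of the route. It lies on chromosome 13 (chr13:119690351-119708260, GRCm38) and had 214.8 TPM (23987 reads) in E14 and 315.8 TPM (23600 reads) in E14-Sox2TA/WT cells. The read counts were nearly equal although the E14 library was deeper, and the log2 ratio was 0.56 (0.53 to 0.58). In TPM this was the widest gap of the 8, 101.0 TPM. The annotated antisense gene Gm48342 overlaps Hmgcs1, and no reads were counted for it separately. Idi1, the isomerase that turns isopentenyl diphosphate into dimethylallyl diphosphate, is on the same chromosome (chr13:8885606-8892396). It had 75.8 TPM (6842 reads) in E14 and 120.5 TPM (7291 reads) in E14-Sox2TA/WT cells, a log2 ratio of 0.67 (0.62 to 0.72). This was the highest ratio of the 8 genes, above that of 88.9% of the genes past the filter. A total of 3 processed pseudogenes match Idi1 at 90% identity or more, and Gm48574 overlaps it on the opposite strand, so its reads could be shared with these.

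Sqle encodes squalene epoxidase, the first oxygen-dependent step and a second control point of the route (chr15:59315092-59331193). It had 117.3 TPM (10150 reads) in E14 and 181.4 TPM (10518 reads) in E14-Sox2TA/WT cells, a log2 ratio of 0.63 (0.59 to 0.67). Its counting interval overlapped that of Idi1, so the order of these ratios is not set by the reads. In all 3 genes the raw read count in E14-Sox2TA/WT cells was close to that in E14, from a library with fewer reads in all.

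Fdps, which makes farnesyl diphosphate, the branch point to sterols and to prenylated proteins, was the most abundant of the 8 in both libraries (chr3:89093588-89101967, minus strand). It had 280.6 TPM (11288 reads) in E14 and 325.2 TPM (8700 reads) in E14-Sox2TA/WT cells, a log2 ratio of 0.21 (0.17 to 0.25). Reads of Fdps are uncertain, since 5 processed pseudogenes resemble its transcripts and the annotated gene Gm43738 overlaps it on the same strand. Fdft1 encodes squalene synthase, the first enzyme committed to sterols (chr14:63145150-63181687, minus strand). It had 84.5 TPM (9843 reads) in E14 and 88.1 TPM (6875 reads) in E14-Sox2TA/WT cells, and its log2 ratio of 0.06 (0.02 to 0.10) was the lowest of the 8. The processed pseudogene Gm6781 resembles it, and its transcripts share up to 774 exonic bases with Ctsb on the opposite strand, and Ctsb, a lysosomal protease, had 10770 reads in E14 and 4392 reads in E14-Sox2TA/WT cells. The sources used here do not say whether counting used strand, and the part of Ctsb in the value of Fdft1 was not tested. Lss, which cyclizes oxidosqualene to lanosterol, was the least abundant of the 8 (chr10:76531565-76557139). It had 45.0 TPM (8980 reads) in E14 and 51.8 TPM (6915 reads) in E14-Sox2TA/WT cells, a log2 ratio of 0.20 (0.16 to 0.25).

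The other 2 of the 8 act in control of the route. Insig1, the sterol-regulated anchor of SREBP2 (chr5:28071412-28078662), had 78.1 TPM (6512 reads) in E14 and 94.7 TPM (5295 reads) in E14-Sox2TA/WT cells, a log2 ratio of 0.28 (0.23 to 0.33). Srebf2 itself (chr15:82147269-82205379) had 215.3 TPM (30992 reads) in E14 and 228.8 TPM (22066 reads) in E14-Sox2TA/WT cells, a log2 ratio of 0.09 (0.06 to 0.11). That ratio lay next to the median of all genes, 0.08. Sorted by ratio, the 8 genes left their widest gap, 0.28 log2 units, between Hmgcs1 and Insig1, with Hmgcs1, Sqle and Idi1 above it and the other 5 below; this division was read off the values.

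**Figure D3:**
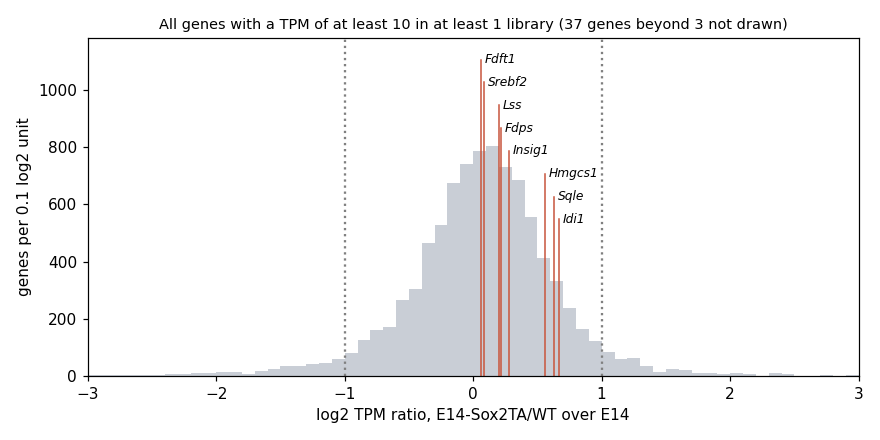
Histogram of the log2 TPM ratio, E14-Sox2TA/WT over E14, for genes that reached a TPM of 10 in either library, with the 8 genes as labelled red lines and 2-fold as dotted lines. All 8 lie right of 0 and inside 2-fold; Fdft1 and Srebf2 sit by the peak of the histogram, and Hmgcs1, Sqle and Idi1 on its right shoulder, above 84.7%, 87.5% and 88.9% of the genes.

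The order of the levels differed between the libraries. In E14, Fdps came first, followed by Srebf2 and Hmgcs1, whose counting intervals overlapped, then Sqle, Fdft1, Insig1 and Idi1, the last pair again overlapping, and Lss. In E14-Sox2TA/WT cells, Fdps and Hmgcs1 overlapped at the top, followed by Srebf2, Sqle, Idi1, Insig1, Fdft1 and Lss with no overlap between neighbours. Dividing each gene by Srebf2 within a library removes the scaling between libraries. Per Srebf2 TPM, Hmgcs1 went from 0.998 in E14 to 1.38 in E14-Sox2TA/WT cells, Sqle from 0.545 to 0.793 and Idi1 from 0.352 to 0.527. Fdft1 per Srebf2 was 0.393 and 0.385, a log2 difference of -0.03 with a counting interval from -0.08 to 0.02, which includes no change. These values depend on the gene divided by. Per Fdps TPM, the log2 difference of Fdft1 was -0.15 (-0.21 to -0.09). Hmgcs1, Sqle and Idi1 per Fdps had log2 differences of 0.34, 0.42 and 0.46, against 0.47, 0.54 and 0.58 per Srebf2.

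How libraries are scaled decides the sign of the smallest ratios. The TPM ratio of a gene exceeded its FPKM ratio by 0.14 log2 units, and the median of all genes was -0.06 by FPKM and by CPM (reads scaled to the total of the library, with no length). Fdft1 then stood at -0.08 by both measures and Srebf2 at -0.06 by both, so 6 of the 8 genes were higher on those scales, beside 45.0% of the genes past the filter. With the ratio centred on the median of all genes, Fdft1 was at -0.02 and 7 of the 8 were higher; centring puts as many genes above 0 as below. Hmgcs1, Sqle and Idi1 had a higher level in E14-Sox2TA/WT cells under each of the 7 scalings plotted, with their lowest values at 0.41, 0.49 and 0.40. So did Insig1, Fdps and Lss, with their lowest values at 0.14, 0.06 and 0.06. All of these scalings but the one that removes a GC and length trend move the 8 genes by nearly the same amount. A ratio larger than that shift keeps its sign by construction, so agreement among them is not a separate check.

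Transcript composition moved with the ratios too. Over all genes past the filter, the lowest of 20 bins by GC content, 38.7% on average, had a median log2 ratio of 0.33, and the highest bin, 61.9%, had -0.06. By transcript length, the shortest of 20 bins, at 525 bases, had a median of -0.16 and the bin of the longest, at 9646 bases, 0.55. Among the 8 genes, Idi1 (41.9% GC) and Hmgcs1 (43.3%) had the lowest GC content and Srebf2 (57.9%) the highest, and GC content and ratio had a Pearson r of -0.82 and a Spearman rho of -0.76 over the 8 genes, given as a description of genes that share both libraries. Over the 19 pathway enzymes described below, 6 of the 8 genes included, they were -0.42 and -0.44. With a trend on GC content and length removed, Idi1 went to 0.40, Hmgcs1 to 0.41 and Lss to 0.07, while Fdps, whose transcripts are short, went to 0.45. Fdps then lay above Hmgcs1 and Idi1, so the division at the widest gap by TPM did not hold on this scale. Sqle stayed at 0.62, Insig1 at 0.27, Fdft1 at 0.05 and Srebf2 at 0.04. Against genes within 1 percentage point of its own GC content, Sqle lay above 88.8%, Idi1 above 83.1% and Hmgcs1 above 80.9%. Fdps lay above 67.0%, Insig1 above 65.0%, Lss above 64.5%, Srebf2 above 62.9% and Fdft1 above 51.1%. Sqle and Srebf2 lie on chromosome 15, the chromosome with the lowest median log2 ratio, -0.14, whereas the median of chromosome 13, which carries Hmgcs1 and Idi1, was 0.16. The highest median, 0.28, was that of chromosome 8, which carries none of the 8 genes. The enzymes Mvd and Msmo1, described below, lie on chromosome 8. The part of the chromosome in these ratios was not tested.

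**Figure D4:**
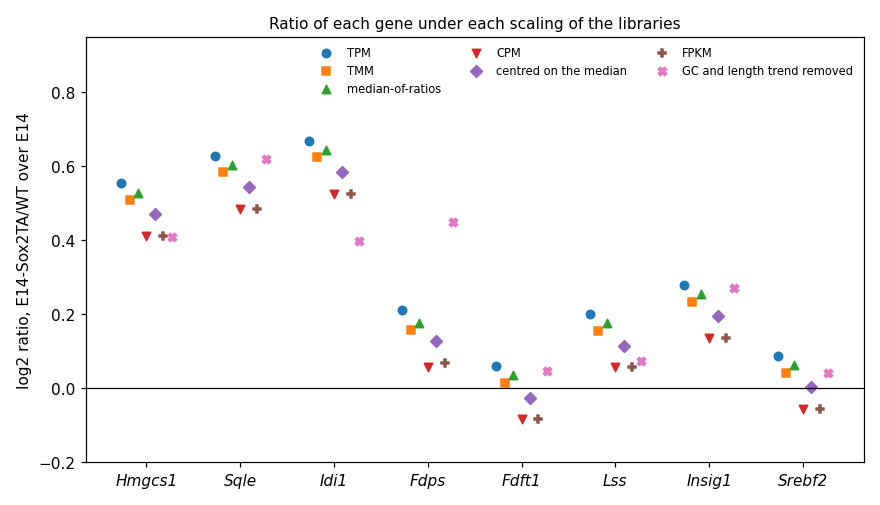
Log2 ratio of E14-Sox2TA/WT over E14 for each of the 8 genes under 7 scalings, 1 marker per scaling: TPM, TMM, median-of-ratios, CPM, TPM centred on the median, FPKM, and TPM with the GC and length trend removed. Fdft1 lies below 0 in 3 of them and Srebf2 in 2; with the trend removed, Idi1 lies at 0.40 instead of 0.67 and Fdps at 0.45 instead of 0.21.

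The 8 genes were then set in their pathway. Of 19 enzymes examined between acetyl-CoA and cholesterol, all past the filter, 16 had a higher and 3 a lower TPM in E14-Sox2TA/WT cells, with a median log2 ratio of 0.26 and none past 2-fold; the share of higher genes past the filter was 57.3%. By CPM and FPKM, 13 of the 19 were higher, beside 45.0% of the genes. In the steps up to farnesyl diphosphate, 6 of 7 enzymes examined were higher. Besides Hmgcs1, Idi1 and Fdps, these were Acat2, which condenses acetyl-CoA, at 0.47, Mvd, the decarboxylase, at 0.28, and mevalonate kinase Mvk at 0.26. The exception was phosphomevalonate kinase Pmvk, with 117.9 TPM in E14 and 86.3 TPM in E14-Sox2TA/WT cells, a log2 ratio of -0.45 (-0.53 to -0.38).

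In the steps from farnesyl diphosphate to cholesterol, 10 of 12 enzymes examined had a higher TPM, beside 57.3% of the genes past the filter. By CPM and FPKM, 7 of the 12 were higher and 5 lower, beside 45.0% of the genes higher. Hsd17b7, a reductase of sterol intermediates, was close to Sqle with a log2 ratio of 0.63, from 9.63 TPM in E14 to 14.9 TPM in E14-Sox2TA/WT cells, and was the third enzyme of the 19 past 1.5-fold after Idi1 and Sqle, beside 14.2% of the genes past the filter. It passed the filter by its level in E14-Sox2TA/WT cells alone. By CPM and FPKM it stood at 0.48, short of 1.5-fold, and at 0.37 with the trend removed. The methyl oxidase Msmo1 stood at 0.47, between Hmgcs1 and Insig1, as did Lbr and Tm7sf2, the sterol reductases of one shared step, at 0.42 and 0.35, and Nsdhl, a decarboxylating dehydrogenase, was at 0.21. The demethylase Cyp51, the step after Lss, was at 0.12 and Sc5d at 0.06 with an interval that included 0. Lower were the isomerase Ebp, at -0.26, and the last reductase Dhcr7, at -0.05 with an interval from -0.10 to 0.01. The 13 enzymes other than the 6 described above had a median of 0.26 by TPM. Of them, 10 had a higher TPM, beside 57.3% of the genes.

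Srebf2 and Insig1 were also set among 10 genes that control SREBP activity. Of these, 7 had a higher and 3 a lower TPM, beside 57.3% of the genes past the filter with a higher TPM. Their median was 0.06, just below Srebf2 and the median of all genes. Of the counting intervals, 5 lay above no change and 3 below, beside 50.2% of the genes past the filter above it. By CPM and FPKM, 4 were higher and 6 lower, and the median was -0.03 once the trend on GC content and length was taken out, so the list had no direction that held under each scaling. The highest was Mbtps2, a protease that cuts SREBP2, at 0.31 (-0.09 with the trend removed), and the lowest Erlin1, a membrane protein of the endoplasmic reticulum, at -0.59. Insig1, at 0.28, was in the upper part of the list. None of the 10 was past 2-fold.

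**Figure D5:**
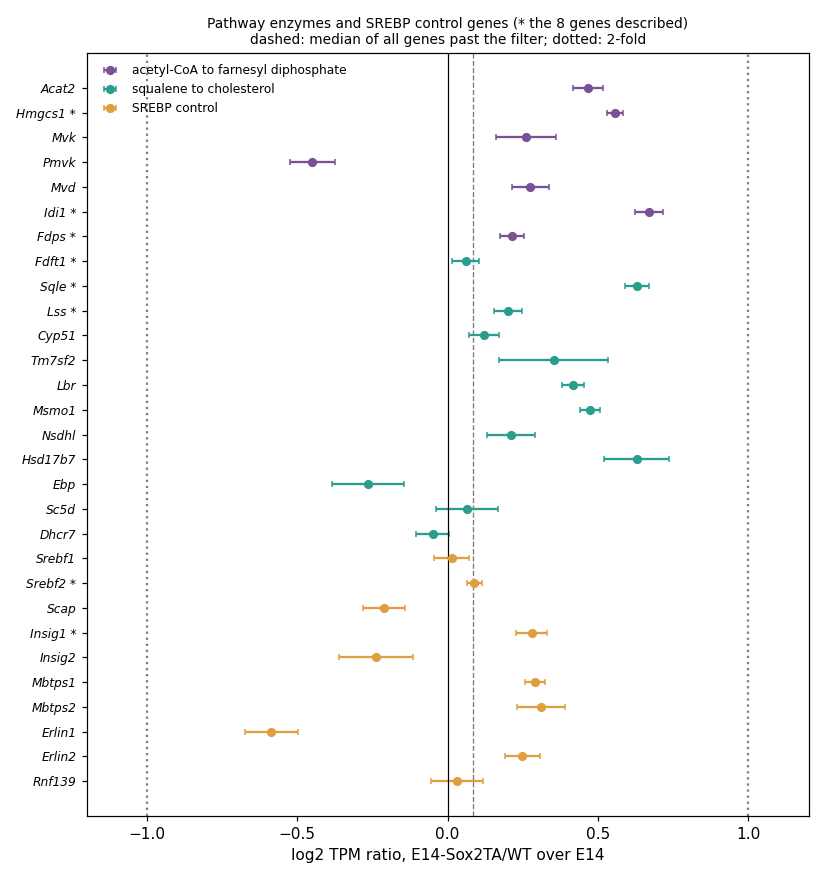
Log2 TPM ratio with its 95% counting interval for 19 enzymes in pathway order and 10 SREBP control genes; asterisks mark the 8 genes, the dashed line the median of all genes past the filter (0.08) and dotted lines 2-fold. Most enzymes lie right of 0, led by Idi1, Sqle and Hsd17b7. Pmvk, Ebp and 3 of the SREBP control genes, Erlin1 the lowest, have intervals wholly left of 0.

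Neighbouring lipid genes gave a mixed picture beside the 8. Of 16 genes of cholesterol uptake, transport, storage and efflux, 9 passed the filter. Of these 9, 4 had a higher and 5 a lower TPM, beside 57.3% of the genes past the filter with a higher TPM. The highest was Soat1, which esterifies cholesterol for storage, with 12.6 TPM in E14 and 30.04 TPM in E14-Sox2TA/WT cells (log2 ratio 1.25, past 2-fold, but 0.74 with the trend removed). The lowest was the lipoprotein receptor Scarb1, with 71.0 and 37.5 TPM (-0.92, -1.06 by CPM and FPKM, and -0.70 with the trend removed). All 8 genes of other isoprenoid branches had a higher TPM, beside 57.3% of the genes, but 4 of 8 by CPM and FPKM. Their median was 0.16 by TPM, from Pdss2, a subunit of the enzyme that makes the side chain of ubiquinone, at 0.02 to Ggps1 at 0.64 (0.30 with the trend removed). Of the 8 counting intervals, 6 lay above no change, beside 50.2% of the genes past the filter. Ggps1 makes geranylgeranyl diphosphate from the product of Fdps. Of 10 genes of fatty acid synthesis, 5 were higher and 5 lower by TPM, beside 57.3% of the genes higher, with a median of 0.03. By CPM and FPKM, 4 were higher and 6 lower, beside 45.0% of the genes higher. Acaca, the first committed step, was at 1.02 with a counting interval from 0.98 to 1.07 that spans 2-fold. It was short of 2-fold under each other scaling plotted for the 8 genes, at 0.88 by CPM and FPKM and 0.62 with the trend removed. Acss2, which makes acetyl-CoA from acetate, was past 2-fold in the other direction at -1.17 and under each of the 7 scalings plotted for the 8 genes.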

How the data were processed

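Polyadenylated RNA of E14 and E14-Sox2TA/WT cells was sequenced on a NovaSeq instrument, 1 library per genotype. The submitters' processing notes list bcl2fastq 2.20.0, Trimmomatic, HISAT2 2.1.0 and StringTie 2.1.3b without their roles; the gene table is for mm10. How strand and reads that map to several genes were handled is not given in the sources used here. Read counts were deposited by the authors as whole numbers without normalization. FPKM and TPM values were also deposited by the authors, scaled per kilobase and per library.

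Following the study's methods, genes that reached a TPM of 10 in either library were kept and those above 2-fold counted, from plain ratios of TPM with no pseudocount. A gene with a TPM of 0 on one side was taken as past 2-fold. With 1 library per genotype there is no test, SD or p-value. The 95% intervals of ratios (exact Clopper-Pearson) and of levels (exact Poisson) cover counting error only. The 8 genes, the gene lists (from general knowledge) and the alternatives were chosen with earlier results of these data known. Genes that could be named were the 8 genes, the pathway enzymes, the markers, Sox2, and in each list the highest and lowest gene past the filter and those past 2-fold; Ctsb and the Gm genes were named for overlaps or copies. Libraries were also scaled by TMM (edgeR 4.0.16), median-of-ratios (DESeq2 1.42.0) and CPM. The trend of the ratio on GC content and then length (medians in 20 bins each, 9032 genes) was removed in an alternative added after seeing the data. Chromosomes and positions came from the RefSeq annotation. Strand, GC content, length, overlaps and copies (at least 90% identity over 200 bases, BLAST 2.17.0) came from the GENCODE annotation of GRCm38. Some genes of the lists are not reported here and enter no list count. The scripts were tested on simulated data.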

Additional observations from a re-analysis of the deposited data

How the results depend on the processing

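No paired analysis was possible because each genotype had 1 library, and no library could be left out. No setting put any of the 8 genes or 19 enzymes past 2-fold. By TPM, 2 of the 8 genes and 3 of the enzymes were past 1.5-fold. By CPM and FPKM none of these was, with Idi1 at 0.53, Sqle at 0.49 and Hsd17b7 at 0.48. With the GC and length trend removed, Idi1 (0.40) and Hsd17b7 (0.37) were short of 1.5-fold, whereas Sqle (0.62) and Tm7sf2 (0.66) were past it. The median log2 ratio of the 8 genes (0.25) was 0.20 by TMM, 0.10 by CPM, 0.16 centred on the median of all genes, 0.10 by FPKM and 0.33 with the GC and length trend removed, an alternative added after seeing the data. The median of the enzymes (0.26) was 0.12 by CPM, 0.12 by FPKM and 0.37 with the trend removed. Fdft1 changed sign by CPM (-0.084), FPKM (-0.083) and centring (-0.025), and Srebf2 by CPM (-0.056) and FPKM (-0.056). Centring and FPKM each shift all genes by 1 common amount, which accounts for their sign changes by construction. The shift by CPM differs slightly between genes, and for Fdft1 and Srebf2 it was 0.14, as by FPKM. All 8 genes had at least 5295 reads in each library, and depth limits the smallest differences: the sign of Fdft1 when centred lies within counting error, and the spread between cultures was not measured.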
